A study of Mus musculus with 4 samples.

Results

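Pou5f1, Nanog, Gdf9, Prm1 and Prm2 are 5 genes of pluripotent and germ cells that are known as targets of NR6A1, an orphan nuclear receptor also called germ cell nuclear factor (GCNF). Their neighbourhoods were searched for NR6A1 peaks in adult mesenchymal cells. Members were the peaks with a midpoint in 4 windows of the mouse genome build mm9, namely chr17:35600000-35690000 for Pou5f1, chr6:122610000-122710000 for Nanog, chr11:53200000-53300000 for Gdf9 and chr16:10750000-10850000 for Prm1 and Prm2, which share their window. The windows are given by position and not by any measured value. The members were, however, chosen with earlier results of these data known. They held 29 of 37667 peaks, 15 of 21507 in NR6A1 replicate 1 and 14 of 16160 in NR6A1 replicate 2. The Pou5f1, Nanog and Prm1 and Prm2 windows had peaks in both replicates, whereas the Gdf9 window had 1 peak in replicate 2 and none in replicate 1. Of all 100-kb stretches of the genome, 34.7% held a peak of replicate 1 and 30.0% a peak of replicate 2. Overlapping peaks of both replicates lay in 20.6%.

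Chromatin immunoprecipitation and sequencing (ChIP-seq) was done on C57BL/6 mouse mesenchymal stem cells (MSCs), an immortalized line that is 1 clone and carries floxed Dicer alleles (Dicer f/f, called Dicer wild type). In 2 libraries the cells expressed Flag-HA-NR6A1 from a retrovirus (pMMP-puro-Flag-HA-NR6A1), and in 2 vector libraries they carried pMMP-puro-vector. All had been selected with puromycin, and all were precipitated with an antibody to HA. Both peak lists are of NR6A1 libraries. No list of a vector library was used here, and what the HA antibody recovers at these loci without tagged NR6A1 is therefore not shown. The receptor was supplied by the virus, so these are sites of tagged, expressed NR6A1. The labels do not say whether the replicates were separate cultures. The lists give neither read counts nor depth, and no test between libraries was made. Expression was not measured in these libraries, so neither the cell type nor the activity of the 5 genes could be checked.

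NR6A1 acts in the main as a repressor. It binds DNA as a dimer at direct repeats of the hexamer AGGTCA with no spacer between the copies, and also at single hexamers extended at their 5′ end (TCAAGGTCA). As embryonic stem cells differentiate it shuts down Pou5f1, which encodes the pluripotency factor OCT4, and Nanog, which encodes another homeodomain factor of the pluripotent state. In the germ line, targets named for it include Gdf9, a growth factor of the oocyte, and Prm1 and Prm2, the protamines that take the place of histones in sperm chromatin.

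The promoters of the members are shown so that the letters NR6A1 is known to bind can be looked for in them. RefSeq promoters of build GRCm38.p6 matched 4 of the 5 members, the exception being Gdf9. Each sequence is the 250 bases before the start, 5′ to 3′ on the gene's strand, with AGGTCA or its reverse complement TGACCT in capitals. They lie at chr17:35505782-35506031 on the plus strand for Pou5f1, chr6:122707239-122707488 on the plus strand for Nanog, chr16:10796824-10797073 on the minus strand for Prm1 and chr16:10792106-10792355 on the minus strand for Prm2. Where the table has 2 starts, as for Pou5f1 and Nanog, the one farthest upstream is shown. These GRCm38.p6 positions cannot be set against the mm9 positions of the peaks.
Pou5f1: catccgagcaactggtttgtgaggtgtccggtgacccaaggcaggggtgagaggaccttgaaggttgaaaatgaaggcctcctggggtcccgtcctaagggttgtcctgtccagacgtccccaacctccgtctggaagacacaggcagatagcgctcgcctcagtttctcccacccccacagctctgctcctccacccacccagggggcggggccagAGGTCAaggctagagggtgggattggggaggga
Nanog: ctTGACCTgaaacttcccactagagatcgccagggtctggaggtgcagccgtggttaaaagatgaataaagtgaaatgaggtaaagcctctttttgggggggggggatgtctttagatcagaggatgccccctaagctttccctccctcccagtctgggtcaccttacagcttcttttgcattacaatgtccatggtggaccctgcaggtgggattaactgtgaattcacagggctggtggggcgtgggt
Prm1: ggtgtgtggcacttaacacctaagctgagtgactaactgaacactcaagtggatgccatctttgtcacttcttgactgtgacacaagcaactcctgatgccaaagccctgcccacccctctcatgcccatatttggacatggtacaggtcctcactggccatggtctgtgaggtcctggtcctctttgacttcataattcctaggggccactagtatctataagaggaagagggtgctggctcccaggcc
Prm2: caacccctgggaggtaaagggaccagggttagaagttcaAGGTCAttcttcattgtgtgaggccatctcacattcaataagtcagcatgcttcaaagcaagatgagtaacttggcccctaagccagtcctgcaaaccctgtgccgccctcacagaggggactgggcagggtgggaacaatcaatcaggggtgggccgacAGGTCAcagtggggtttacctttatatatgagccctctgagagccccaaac

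The Pou5f1 promoter had 1 hexamer, at 33 to 28 bases before the start. The Nanog promoter had 1, on the other strand at 248 to 243 bases before the start. The Prm2 promoter had 2, at 211 to 206 and at 51 to 46 bases before the start, while Prm1 had none. So 3 of the 4 promoters held the hexamer, against 13.8% of 27025 RefSeq promoters of the same length (both strands, 1 promoter a gene). The extended hexamer TCAAGGTCA, which contains the plain one, was in the Prm2 promoter alone among these 4 and in 0.366% of all promoters. The perfect direct repeat was in none of the 4 and in 0.00370% of all. The members were chosen as known targets of NR6A1, so these shares are a description and not an excess.

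The closest approach to the direct repeat was in Prm2, where agttcaaggtca, at 217 to 206 bases before the start, matched 11 of 12 bases. It differs from the repeat by G3T, with positions counted from 1 at the 5′ end of the repeat and the repeat's base written first. A match of at least 11 bases was found in 0.270% of promoters. Pou5f1 followed with aggtcaaggcta, at 33 to 22 bases before the start, which matched 10 of 12 and differs by T10C and C11T. At least 10 matching bases were found in 2.63% of promoters. Nanog and Prm1 each reached 9 of 12, and at least 9 were found in 18.7% of promoters. Among 11 other genes of pluripotency and the germ line that matched the table, of a list of 14, the hexamer was in 3 promoters. These were the promoters of Sox2, a partner of OCT4, of Prm3, a gene of the testis, and of Tnp2, a transition protein of spermatids. None of the 11 held the extended hexamer. The unmatched ones were Dppa3, Gdf3 and Odf1. These are descriptions of letters, and whether a peak covers any of them was not analysed here.

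A peak somewhere in 100 kb is common in these lists. When the assembled chromosomes of mm9 were divided into 26537 tiles of 100 kb, 34.7% held a peak of replicate 1, 30.0% a peak of replicate 2 and 40.7% a peak of either. An overlapping pair, that is a peak of each replicate sharing at least 1 bp, lay in 20.6%. Of the 4 gene windows, 3 held a peak in replicate 1, 4 held one in replicate 2 and 3 held an overlapping pair. With 4 windows, chosen as known targets and lying near other genes, these counts are read against those shares as a description and not as an excess. The window of Prm1 and Prm2 had the most peaks, with 9 peaks in replicate 1 and 7 in replicate 2. As many or more were held by 76 tiles or 0.286% in replicate 1 and by 142 tiles or 0.535% in replicate 2. Its 7 overlapping pairs were matched or passed by 29 tiles, 0.109% of all, with tiles from stretches without peaks included. These pairs formed 6 regions, since 1 replicate 2 peak entered 2 of them. The Nanog window, with 4 and 3 peaks, was matched or passed by 6.60% and 7.66% of tiles. For Pou5f1, with 2 and 3 peaks in a window of 90 kb, the shares were 20.1% and 7.66%. The single Gdf9 peak of replicate 2 was matched or passed by the 30.0% of tiles that hold any.

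**Figure D1:**
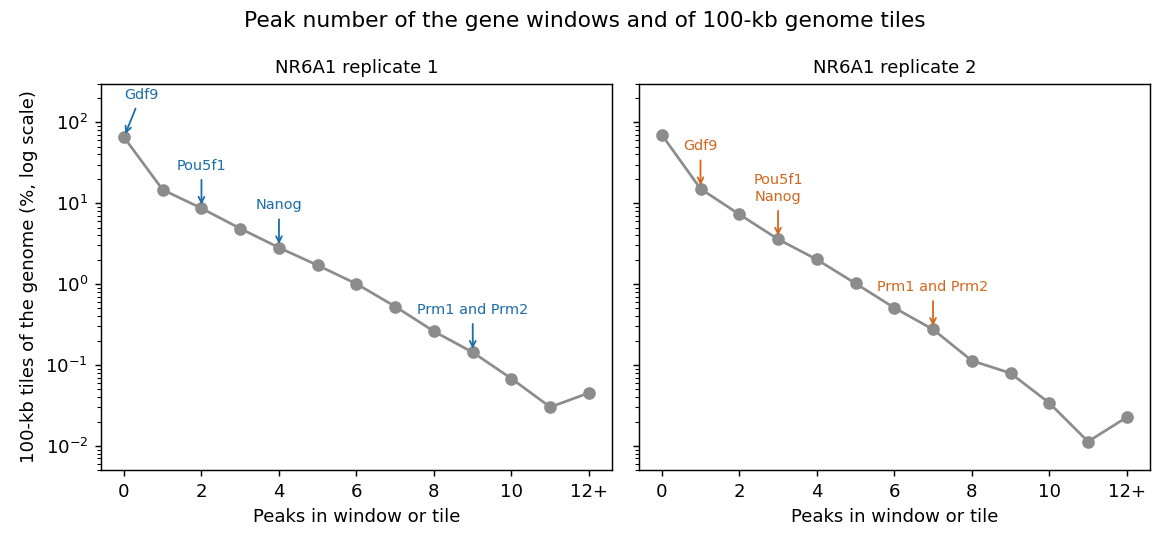
Share of 100-kb tiles of the genome (percent, log scale) by the number of peaks they hold, in NR6A1 replicate 1 (left) and replicate 2 (right), with arrows at the number found in each gene window. The window of Prm1 and Prm2 sits at 9 and 7 peaks, far to the right, while Gdf9 sits at 0 and 1.

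In the Pou5f1 window, 2 regions had overlapping peaks in both replicates and 1 had a peak in replicate 2 alone. The first pair lay at chr17:35681427-35681956 in replicate 1, with an authors' peak score of 308.48, and at chr17:35681352-35681990 in replicate 2, with a score of 592.99. The score was read as MACS's log-transformed p-value, higher for smaller p-values. Both lists start just above a score of 200, and their medians are 417 in replicate 1 and 394 in replicate 2. The second pair lay at chr17:35686501-35687039 with a score of 332.96 in replicate 1 and at chr17:35686389-35687007 with 335.49 in replicate 2. The replicate 2 peak without a partner, at chr17:35688730-35689372, had a score of 262.91. So 4 of the 5 Pou5f1 peaks were below their list's median score, and the fifth, at 592.99, was above 69.7% of its list.

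All of the Pou5f1 peaks were crowded at the high end of the window, 36.7 to 44.1 kb above its centre. Below them neither list had a peak from 35439319 to 35681351, a stretch of 242 kb that takes in the window's centre. The next peaks above the window were 3.05 kb from its edge in replicate 1, at a score of 294.97, and 3.70 kb in replicate 2, at 603.97, and they did not overlap each other. By gene order in GRCm38, the protein-coding neighbours of Pou5f1 are H2-Q10, an MHC class I gene, on the low side and Tcf19, Cchcr1 and Psors1c2 on the high side. Which gene each peak lies in or next to was not analysed here, for want of an mm9 annotation, and the same holds for the other windows.

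The Nanog window had 3 regions with peaks in both replicates and 1 in replicate 1 alone. The region with the highest score was at chr6:122639671-122640217 in replicate 1, with 376.46, and at chr6:122639310-122640281 in replicate 2, with 1740.76. That peak was above 94.9% of the replicate 2 list, yet its partner was above only 44.3% of the replicate 1 list, and the score was 4.62-fold higher in replicate 2. A second region, at chr6:122652350-122652995 in replicate 1 and chr6:122652304-122653039 in replicate 2, had scores of 384.67 and 452.73, and the midpoints of its peaks were 1.00 bp apart. The third lay close to the high edge, at chr6:122708674-122709153 and chr6:122708737-122709258, with 598.17 in replicate 1 and 303.92 in replicate 2. These scores run in opposite directions, with replicate 2 higher at the first 2 regions and replicate 1 higher at the third.

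The replicate 1 peak with no partner, at chr6:122704708-122705325, had a score of 950.74, the highest of replicate 1 in the Nanog window and above 82.7% of its list. The regions thus fell in a low group, 20.2 and 7.33 kb below the window's centre, and a high group, 45.0 to 49.0 kb above it. Between them neither list had a peak over 51.7 kb, from 122653040 to 122704707. The next peaks above the window were 3.19 kb from its edge in replicate 1, at a score of 215.57, and 50.1 kb in replicate 2, at 333.31. The chromosome around Nanog carries other genes of early development: in GRCm38 the neighbours on the low side are Dppa3, a maternal and germ cell factor also called Stella, and Gdf3, a TGF-beta family ligand of pluripotent cells, and the neighbour on the high side is Slc2a3, a glucose transporter.

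Gdf9 had the fewest peaks of the members. Its window had no replicate 1 peak, and the nearest were 27.5 kb below the window at a score of 374.37 and 21.6 kb above it at 1019.13. Replicate 2 had 1 peak in the window, at chr11:53243553-53244197, 6.13 kb below its centre. The score was 496.71, above 62.1% of the list. A replicate 1 stretch of 149 kb, from 53172537 to 53321586, was without a peak there. A peak missing from a list cannot be told apart from one just under the authors' threshold. The Gdf9 peak is therefore given as a site seen in 1 of 2 replicates. Whether the replicates differ there was not tested. The closest region with peaks in both replicates was outside the window, at chr11:53321587-53322194 with 1019.13 in replicate 1 and at chr11:53321510-53322158 with 445.23 in replicate 2. The genes next to Gdf9 in GRCm38 are Uqcrq, a subunit of respiratory complex III, and Shroom1.

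**Figure D2:**
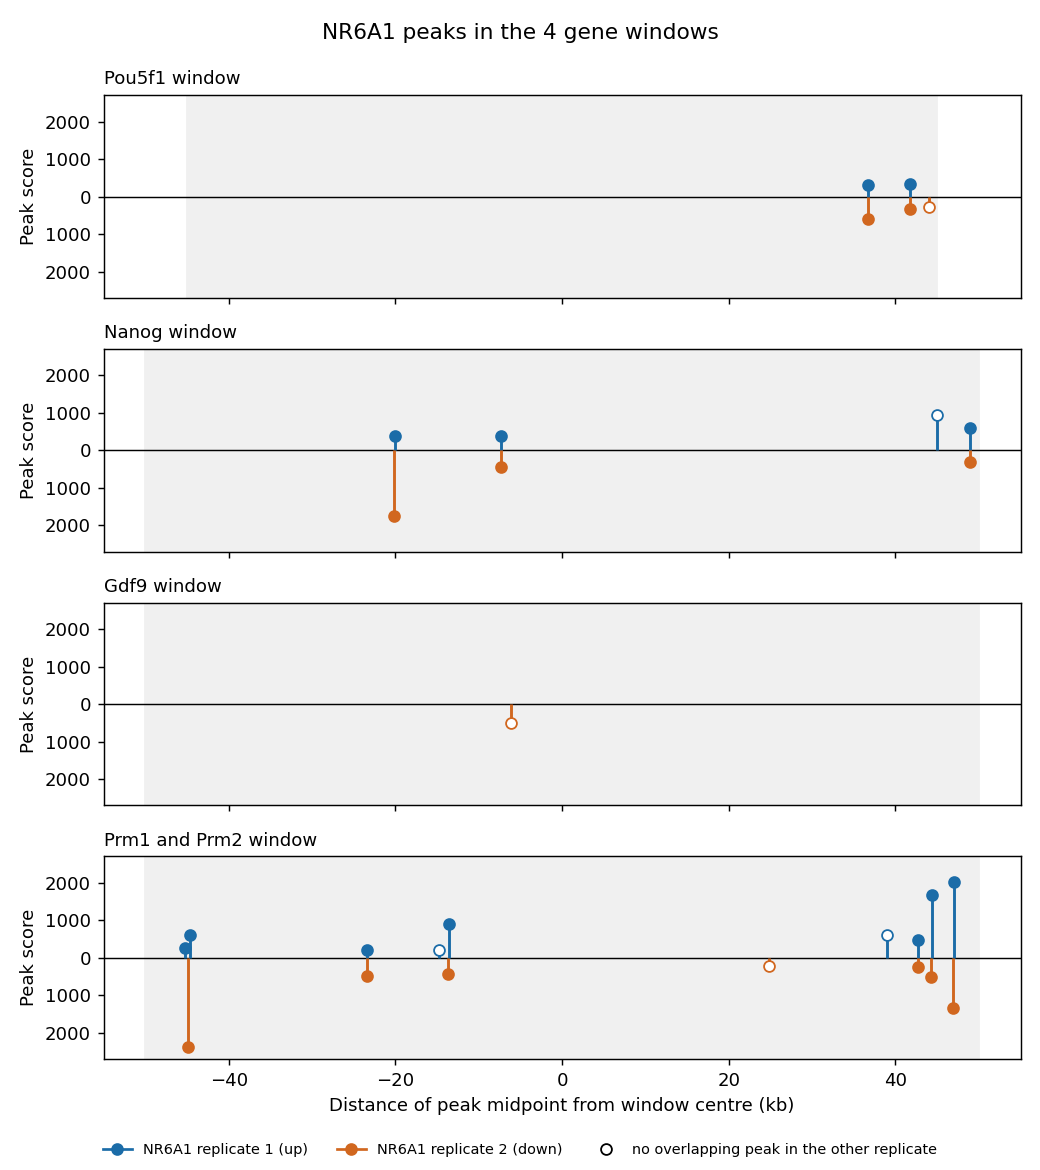
Peaks of NR6A1 replicate 1 (up) and replicate 2 (down) by the distance of their midpoint from the centre of each window (kb), with the authors' peak score as height, grey for the window and open symbols for peaks with no overlapping peak in the other replicate. Pou5f1 peaks gather 36.7 to 44.1 kb above the centre, Gdf9 has 1 open symbol, and the window of Prm1 and Prm2 has most of the peaks.

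The window of Prm1 and Prm2 held 16 of the 29 peaks, in 9 separate regions, of which 6 had peaks in both replicates, 2 in replicate 1 alone and 1 in replicate 2 alone. The highest score in replicate 2 was at chr16:10754466-10755685, 1220 bp wide, with 2386.89, above 97.4% of its list. Replicate 1 had 2 narrower peaks there, at chr16:10754583-10755012 with 266.05 and at chr16:10755057-10755593 with 604.61. The replicate 2 score was 8.97-fold and 3.95-fold higher than these. A single broad peak in replicate 2 thus lay over a pair of separate, lower-scoring ones in replicate 1.

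At the other end of the window the order of the scores was the reverse. The highest-scoring replicate 1 peak was at chr16:10846610-10847349, with 2011.95 in replicate 1, above 96.0% of its list, and its partner at chr16:10846577-10847277 had 1327.82 in replicate 2, above 91.3%. The region next to it, at chr16:10843875-10844813 and chr16:10843840-10844745, had 1659.41 in replicate 1 and 517.4 in replicate 2, a 3.21-fold higher score in replicate 1. One more, at chr16:10842408-10842891 and chr16:10842419-10842912, had 476.88 and 252.89. A further pair straddled the window's edge with midpoints just outside it, at chr16:10849983-10850493 with 406.17 in replicate 1 and at chr16:10849969-10850496 with 295.48 in replicate 2, and is not counted. In replicate 1 the peak at chr16:10838523-10839344, with 611.1, had no partner.

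Between those ends no score passed 894.21. One region at chr16:10785887-10786867 and chr16:10785732-10786834 had 894.21 in replicate 1 and 427.07 in replicate 2. Another at chr16:10776364-10776818 and chr16:10776315-10776920 had 201.69 in replicate 1, at the very bottom of its list, and 483.74 in replicate 2. Single peaks were at chr16:10784991-10785427 in replicate 1, with 208.67, and at chr16:10824608-10824985 in replicate 2, with 213.78. Between 10786868 and 10824607, a stretch of 37.7 kb that takes in the window's centre, neither list had a peak. In GRCm38, Prm1 and Prm2 stand in a row with Prm3 and Tnp2. This row lies between Socs1, an inhibitor of cytokine signalling, and Rmi2, a subunit of a complex that protects the genome. Whether the high-scoring peaks lie at those neighbours was not analysed here.

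Over the 4 windows, the peaks had a partner more often than their lists as a whole. In replicate 1 it was 12 of 15, or 80.0%, against 42.7% of the list, and in replicate 2 it was 11 of 14, or 78.6%, against 56.0%. The 29 peaks merged into 17 regions, 11 of them found in both replicates and 3 in each replicate alone. Most of the pairs came from 1 window, so these are not independent observations and no test is attached. The median score was 477 in the windows and 417 in the list for replicate 1, and 468 and 394 for replicate 2. The widths were ordinary, with medians of 539 bp in the windows and 538 bp in the list for replicate 1, and of 644 and 613 bp for replicate 2.

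Midpoints of the 12 pairs lay a median of 62.3 bp apart, and 9 of 12 lay within 100 bp, a distance that the overlap asked of partners itself keeps short. The same share over all pairs is not given here, so this closeness is not read as particular to the windows. Scores were within 2-fold of each other in 6 of the 12 pairs, against 65.4% of 9223 pairs in all. Replicate 2 had the higher score in 7 of the 12 pairs, against 49.8% of all pairs, and replicate 1 in 5. The broad replicate 2 peak with 2386.89 enters 2 of these pairs. Counted by region, with its higher-scoring partner, replicate 2 was higher in 6 of 11 regions and replicate 1 in 5, and 6 of 11 were within 2-fold, while the median log2 ratio over all pairs was 0.00. The ratios ran both ways within the Nanog window and within that of Prm1 and Prm2. Depth and background of each library move a score, and their part in these differences was not tested.

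**Figure D3:**
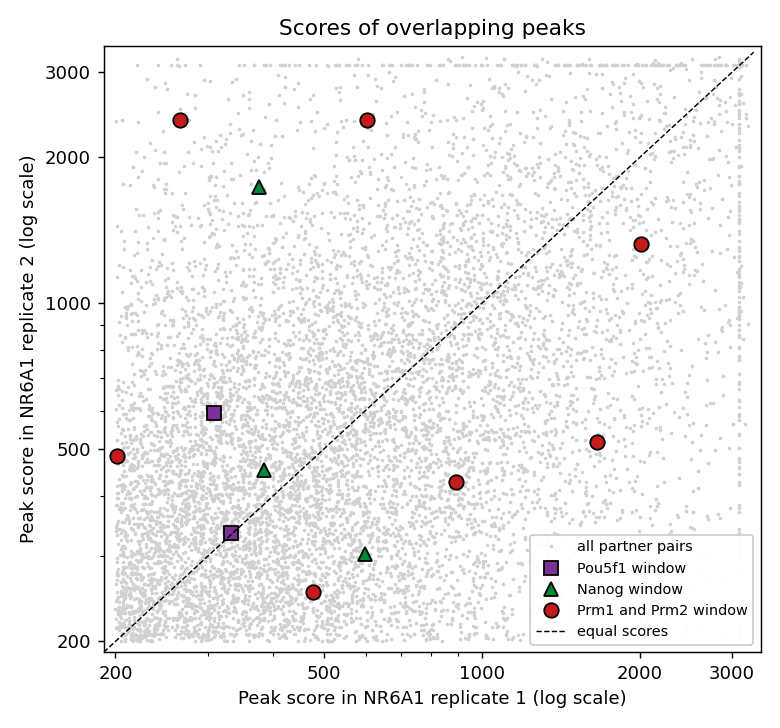
Authors' peak scores of overlapping peaks in NR6A1 replicate 1 (x axis, log scale) and replicate 2 (y axis, log scale), with all 9223 pairs in grey, the 12 pairs of the gene windows in colour and a dashed line at equal scores. Of the 12 pairs 7 lie above the line and 5 below it, and 6 are within 2-fold; 1 replicate 2 peak stands in 2 of the pairs above the line.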

How the data were processed

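The lists of peaks were deposited by the authors, 1 for each NR6A1 library, so peaks were made per sample and not on pooled samples. The submitters' processing notes name Bowtie 0.12.7, MACS and build mm9, with no role for each. The control library and the threshold are not given in the sources used here. The authors' deposited rows hold a position and a score, read from its range as MACS's log-transformed p-value. A score depends on the depth and background of its library, and depth is unknown. Scores were therefore used within a list or side by side for partners, except for the stricter cutoffs of 500 and 1000. These cutoffs were the same in both lists, so counts at them are not to be compared between replicates.

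Positions are those of the files on mm9, with the first base as 1. Peaks were put in a window by their midpoint, and partners shared at least 1 bp. Tiles of 100 kb used chromosome lengths from GenomeInfoDb 1.38.1 (R 4.3.3). Other work used Python 3.11.15, numpy 2.4.6 and pandas 2.3.3. The pair and tile counts were tested on simulated lists with known answers, and the counts in the gene windows were not. Promoters were searched over 250 bases on both strands. Named items are the 5 members and every peak of their windows, with the nearest peaks where a window has none. Peaks just outside the Pou5f1, Nanog and Prm1 and Prm2 windows and the partner pair outside the Gdf9 window were added after their values were seen. There was also a list of 14 other genes for promoter letters only. The members and lists were chosen with earlier results of these data known. No mm9 genome or annotation was used here, so peaks were not placed in exons, introns or promoters. Alternatives were the midpoint rule, a stricter score, other window sizes, other partner definitions, other tiles and other motifs.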

Additional observations from a re-analysis of the deposited data

How the results depend on the processing

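Across 69 recomputed values, 31 kept within their limits and 38 moved. The limit was 1.5 times the reported value for a count and its Wilson confidence interval for a share of tiles. Some outcomes were fixed beforehand. A reported count of 0 stays 0 under a stricter score or a smaller window, and any hit moves it. The values with 1 replicate left out, among those kept, count windows with any peak and not pairs. Counting any overlap with a window moved no count past 1.5 times. With a score of 500 or more, the Pou5f1 window kept 0 peaks in replicate 1 and 1 in replicate 2, Nanog 2 and 1, Gdf9 0 in replicate 2, and Prm1 and Prm2 5 and 3. With a score of 1000 or more these were 0 and 0 for Pou5f1, 0 and 1 for Nanog, 0 for Gdf9 in replicate 2, and 2 and 2 for Prm1 and Prm2, so that 1 window had a peak in replicate 1 and 2 in replicate 2. In the central 50 kb there were 0 and 0 for Pou5f1, 2 for Nanog in replicate 1, and 3 and 3 for Prm1 and Prm2. In 200 kb there were 5 and 6 for Pou5f1, 7 for Nanog in replicate 1, and 2 and 2 for Gdf9. By construction, stricter scores and smaller windows can only lower a count. The number of windows with an overlapping pair was 3 whether partners had to share 50% of both peaks or to have midpoints within 100 bp. With 1 replicate left out there are no pairs, and the remaining list had a peak in 3 to 4 windows.

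The share of tiles with a peak was 37.7% in replicate 1 and 31.9% in replicate 2 on the chromosomes of the windows, 43.7% and 37.7% without empty 1-Mb windows, and 32.7% and 27.9% with tiles of 90 kb, a size added after seeing the data. For an overlapping pair these were 22.6%, 25.9% and 19.0%. The perfect repeat was in 0 of the members' promoters, the extended hexamer in 1, the hexamer in 3 and a repeat with up to 2 other letters, added after seeing the data, in 2. No paired analysis was possible because the result comes from no test and no vector list was used here. The lists hold no reads, so depth limits what the absence of a peak can show.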
